A study of Arabidopsis thaliana with 15 samples.

Results

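Of 23189 H3K4me2 peaks listed for Arabidopsis thaliana seedlings, 5002 (21.6%) lay on protein-coding genes and apart from both trimethyl marks. A peak was counted here if it shared not 1 bp with any of the 17686 H3K4me3 peaks or the 13491 H3K36me3 peaks, had its summit inside a protein-coding gene and was under 2500 bp wide. The overlap step kept 6167 peaks, the summit step 5074 of these, and the width limit removed a further 72. The summits lay in 4545 genes, or 16.6% of the 27432 nuclear protein-coding genes of the gene table used. The regions were thus chosen by the measured peak positions and widths in these same lists, so their positions, widths and strengths are given as a description and without a test.

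The libraries came from 8-day-old seedlings of ecotype Col-0, as native chromatin cut with micrococcal nuclease and not crosslinked. The 3 genotypes were the fpa single mutant (allele fpa-7), the bdrs triple mutant, whose alleles the labels do not give, and the wild type. FPA is known for its part in choosing where transcripts end and in flowering time. Each of 5 assays (H3K4me2, H3K4me3, H3K36me3, total H3 and the digested input chromatin) was sequenced in 1 library per genotype, 15 in all, and 1 input library of the bdrs mutant has 7 days in 1 of its 2 age labels. Only 1 pooled list of peaks per mark was analysed, and which genotypes each pool holds is not stated. The lists therefore give no value per genotype, no replicate error and no read depth, and the regions below cannot be assigned to a genotype or to a cell type of the seedling. A region with the mark in few cells and one with a low level in every cell cannot be told apart.

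Lysine 4 of histone H3 can carry mono-, di- or trimethylation. In plants H3K4me3 sits near the start of transcribed genes and H3K36me3 spreads over the bodies of transcribed genes, whereas H3K4me2 is also found on genes with little or no transcription. In Arabidopsis the trithorax-type enzymes of the ATX and ATXR groups add methyl groups to lysine 4, and demethylases of the LDL and JMJ families remove them. Neither transcription nor the Polycomb mark H3K27me3 was measured in this series.

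The strongest of these peaks lay on genes of varied roles. By the caller's −log10 p, the first of those on a gene with a symbol was on CSLD6, a cellulose synthase-like gene, on chromosome 1 from 11588879 to 11590307 (TAIR10), with a fold of 11.4 over pooled H3. It ranked 32 in the whole H3K4me2 list, and its nearest H3K4me3 peak lay 4643 bp away. Next came PUM9 (chromosome 1, 13228796 to 13230067, fold 9.76) and PUM11 (chromosome 4, 5631029 to 5631702, fold 8.26), which encode Pumilio-type RNA-binding proteins. PUM12, of the same family, had a peak on chromosome 5 from 22880662 to 22881722 at a fold of 8.34. These 3 Pumilio peaks lay 2658, 5947 and 3434 bp from H3K4me3.

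The other 8 of the first 12 genes with a symbol had folds of 7.02 to 8.71, and genes without a symbol that ranked among them are not named here. HIK, a kinesin needed for cytokinesis, had a peak of 2055 bp on chromosome 1 from 6322328 to 6324382 at a fold of 8.71. ASHH4, a SET-domain gene of the ASH1-related group, had one of 2237 bp on chromosome 3 from 22148115 to 22150351 at a fold of 8.53, and it covered 90.3% of the gene body together with any other H3K4me2 there. UVI4-LIKE, an inhibitor of the anaphase-promoting complex that acts in meiosis, had a fold of 8.22, and KCS17, of the very-long-chain fatty acid synthases, one of 8.41. CALS5, a callose synthase needed for the pollen wall, held 3 of these peaks, the strongest at a fold of 7.96. The last of the first 12 genes with a symbol were the DREB-type factor gene ddf2, the sieve element gene SEOa and the sucrose phosphatase gene SPP1, at folds of 7.79, 7.02 and 8.12. None of these 12 genes held a trimethyl peak anywhere in its body, as was so for 83.9% of all host genes.

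**Figure D1:**
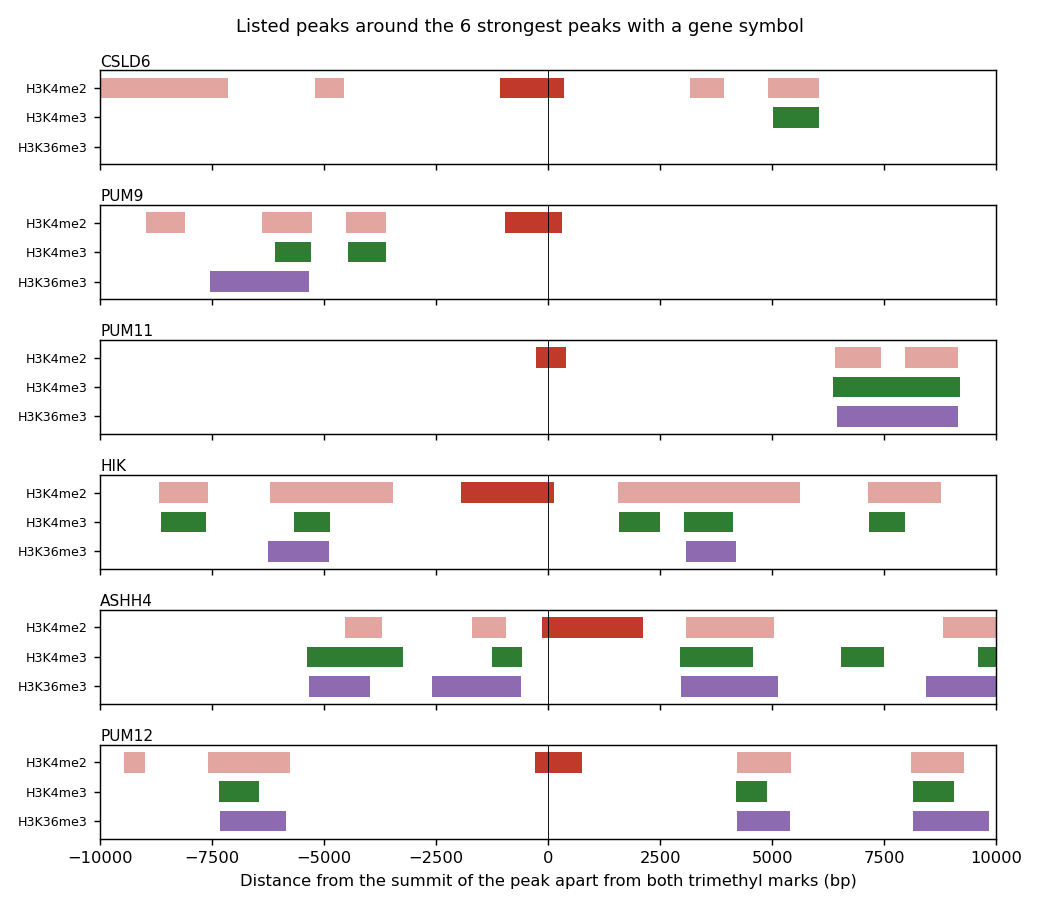
Listed peaks within 10000 bp of the 6 strongest peaks apart from both trimethyl marks on genes with a symbol; the horizontal axis is the distance in bp from that peak's summit, dark red bars are the peaks themselves, pale red bars other H3K4me2 peaks, green bars H3K4me3 and purple bars H3K36me3. The nearest H3K4me3 peak is 4643 bp away at CSLD6 and 458 bp away at ASHH4.

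As a set, the peaks were narrower and weaker than the H3K4me2 peaks that overlap a trimethyl peak. Their median width was 687 bp (quartiles 475 and 1006 bp), against 1080 bp (819 and 1395 bp) for the 16407 other H3K4me2 peaks on genes that overlap H3K4me3 or H3K36me3. Their median fold over pooled H3 was 2.72 (quartiles 2.26 and 3.6), against 3.6 (2.84 and 4.67). Peaks under 500 bp made up 28.3% of the set and 4.74% of the overlapping peaks. The peaks covered 3.96 Mb, which is 16.1% of the sequence under all H3K4me2 peaks. A narrow peak has less room to touch another one, so the rule itself can favour narrow peaks.

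The comparison depends on which overlapping peaks are taken. H3K4me2 peaks that overlap H3K4me3 without H3K36me3 (3678 peaks) had a median fold of 4.89 and −log10 p of 83.2, and those that overlap both (12657 peaks) a median fold of 3.4 and −log10 p of 37.4. The peaks apart from both stood lower, at a median −log10 p of 22.9. The 72 peaks on genes that overlap H3K36me3 alone were lower still, with a median fold of 2.13 and −log10 p of 11.3. H3K4me2 peaks apart from both marks but with the summit outside protein-coding genes (1093 peaks) had nearly the same median fold, 2.77.

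**Figure D2:**
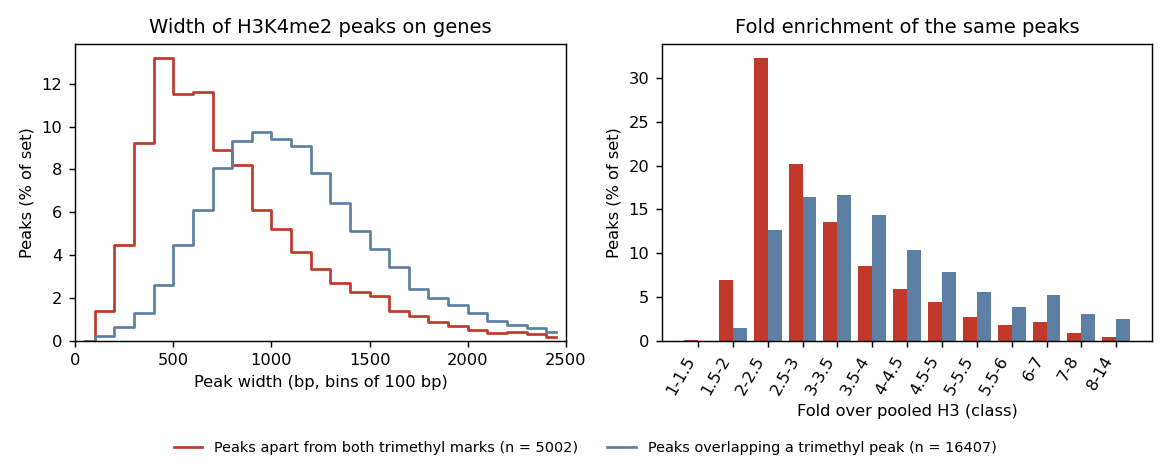
Width in bp (left, bins of 100 bp, drawn up to 2500 bp) and fold over pooled H3 (right, classes of unequal size as labelled) as a percentage of each set, for peaks apart from both trimethyl marks (red) and for H3K4me2 peaks on genes that overlap a trimethyl peak (blue). The medians are 687 and 1080 bp, and folds of 2.72 and 3.6.

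The weaker end of the H3K4me2 list held most of these peaks. When all H3K4me2 peaks were ranked by −log10 p and split into 10 equal groups, the set made up 8.32% of the first group and 44.9% of the last. The share went up at every step of the ranking or stayed level, with 14.8% in both the third and the fourth group. Of the first 100 peaks 4 belonged to the set, and of the first 1000 peaks 47. The weakest, on AT3G09190, had a −log10 p of 8.58 and was the last peak of the whole list. At the width limit, the 3 peaks just inside were on ABCE1 (2474 bp, fold 1.96), AT3G10880 (2468 bp, fold 5.21) and LTI65 (2459 bp, fold 5.4). The 3 just outside were on KAT2 (2517 bp, fold 2.41), SOL1 (2533 bp, fold 5.41) and AT5G49680 (2540 bp, fold 3.18).

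**Figure D3:**
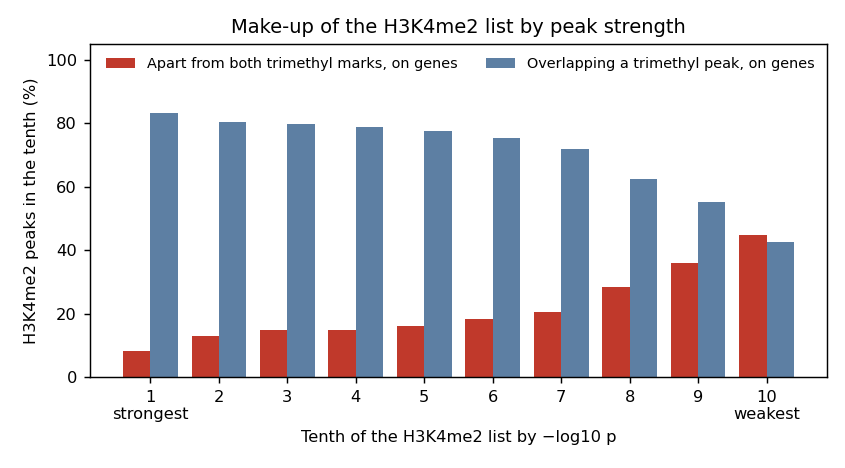
Percentage of H3K4me2 peaks (vertical axis) in each of 10 groups of equal size, ordered from the highest to the lowest −log10 p, that are apart from both trimethyl marks and on genes (red) or that are on genes and overlap a trimethyl peak (blue). The red share is 8.32% in the first group and 44.9% in the last, and the blue share 83.4% and 42.6%.

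Most of the peaks lay on genes that held no listed trimethyl peak. The lists keep 76.3% (H3K4me3) and 62.8% (H3K36me3) of the peak numbers, and an unlisted peak could not be counted. Of the 5002 peaks, 4218 (84.3%) were on such genes and 784 (15.7%) on genes with H3K4me3 or H3K36me3 elsewhere in the body. Counted by gene, 3814 of the 4545 hosts (83.9%) had neither trimethyl mark, 435 had H3K4me3 only, 267 had both and 29 had H3K36me3 only. Among all 27432 protein-coding genes, 36.1% had neither mark. Where a gene was counted as marked only from 200 bp of its body (50% in genes under 400 bp), 3862 hosts (85%) and 36.7% of all genes had neither. The rule removes H3K4me2 peaks that touch a trimethyl peak, so a high share without trimethyl peaks follows in part from it. Peaks on genes without a trimethyl peak had a median fold of 2.77, and peaks on genes with one elsewhere a median of 2.51.

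Distances to the trimethyl peaks were taken for this set only, so whether they are short or long for the genome was not tested. The median distance to the nearest H3K4me3 peak was 2113 bp (quartiles 952 and 3988 bp) and to the nearest H3K36me3 peak 2658 bp (1210 and 5267 bp). A peak of either trimethyl mark lay within 1000 bp of 28.9% of the set and within 5000 bp of 84.2%. Within 200 bp it was 3.34%, so few of the peaks sat directly beside a trimethyl domain. On genes without a trimethyl peak the median distance to either mark was 2228 bp, and on genes with one elsewhere 622 bp.

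The genes without a trimethyl peak were short and the hosts with one were long. The median gene length was 1736 bp for the 3814 hosts without a trimethyl peak and 3253 bp for the 731 hosts with one, against 2078 bp for all genes. Genes whose H3K4me2 peaks all overlapped a trimethyl peak (15424 genes, each peak placed by its summit) had a median of 2467 bp. When genes were ranked by length in 10 equal groups, the share that hosted one of these peaks on a gene without trimethyl marks was highest in the second group, at 23%, and lowest in the group of the longest genes, at 6.71%. The share of hosts with a trimethyl peak elsewhere went the other way, 0.0364% among the shortest genes and 7.18% among the longest.

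Annotation differed along with length. A symbol beyond the locus name was on record for 37.9% of the hosts, against 43.6% of these 15424 genes, and 2 or more annotated transcripts for 35.2% against 48.6%. For all genes these shares were 37.8% and 39%. Within groups of like length, hosts were set against all other genes and not against the 15424. The other genes include 7463 with no H3K4me2 summit, of which 21.3% had 2 or more transcripts. Whether length accounts for the gap to the 15424 genes was therefore not tested. For 2 or more transcripts the shares were 12.9% of hosts and 13.3% of the other genes in the second length group. They were 19.6% and 22.7% in the third, 27.4% and 31.5% in the fourth and 40% and 46.8% in the sixth. In the seventh they were 50% and 52%, and in the longest 70.1% and 68%. The gap was widest in the fifth group, at 28.3% and 41%, where symbols were on record for 38.2% and 38.4%.

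Inside the gene, the summits lay in the outermost 10% more often than those of the overlapping peaks. The gene table gives no strand, so the distance was taken from the nearer end, whichever it is. The summit fell in the outermost 10% of the gene for 24.6% of 4927 peaks with a single host gene, against 13.6% of 16201 overlapping peaks. In the innermost part, 40% to 50% of the gene length from the nearer end, lay 14.1%, against 12.2%. The median distance from the nearer end was 19.4% of the gene length, against 22.6%. In bp it was 340, against 575, but the host genes were shorter. Their median length was 1924 bp, against 2467 bp for genes whose H3K4me2 peaks all overlapped a trimethyl peak. The peak lay wholly within its gene in 69.4% of cases, against 87.7%, and covered a median of 34.6% of the gene, against 43.6%. The summits of 75 peaks fell in 2 or more genes that overlap, and which of the genes carries such a peak cannot be told. These peaks were left out of the positions, but each gene was counted as a host.

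On genes that also had H3K4me3, the peaks mostly lay toward the opposite end. Where a gene held a single H3K4me3 summit in an outer part of its body, 451 of 576 peaks (78.3%) had their summit past the middle of the gene, away from it, with a median position at 77.2% of the gene length. Between 80% and 90% of the way lay 26.6% of them, and 19.8% lay in the last 10%. H3K4me2 peaks that overlap H3K4me3 had a median at 22%, with 5.21% past the middle. A peak that may not touch H3K4me3 is kept from the near end by the rule, so the contrast in position is fixed in part. The strongest examples with a symbol were on NAT8, a nucleobase transporter family gene (fold 6.37, 1859 bp from H3K4me3), GRF12, a 14-3-3 protein gene (fold 6.31, 261 bp), and SEC3A, an exocyst subunit gene (fold 5.54, 1096 bp). These 3 were chosen after their values were seen.

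**Figure D4:**
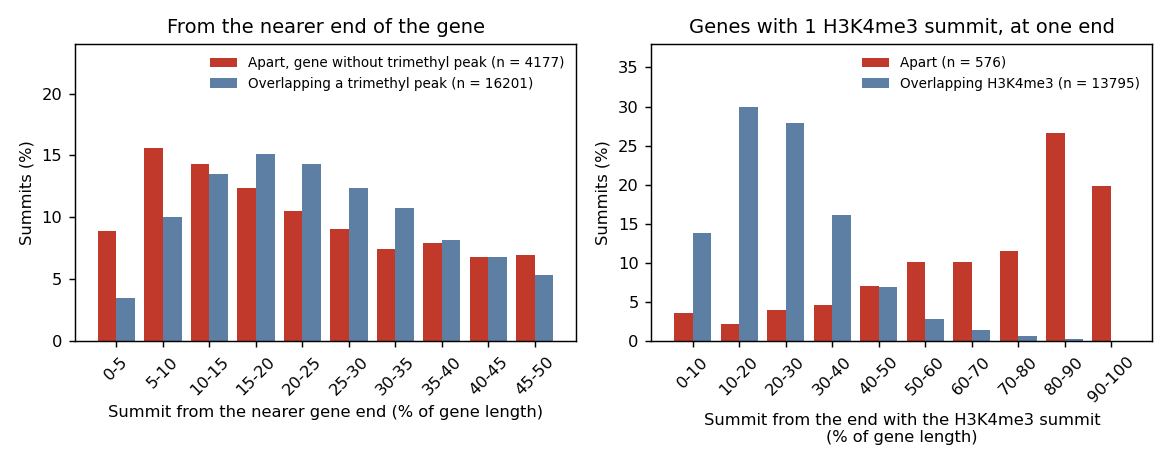
Position of H3K4me2 summits as a percentage of gene length. Left, from the nearer gene end, for peaks apart from both marks on genes without a trimethyl peak (red, n = 4177) and for peaks overlapping a trimethyl peak (blue, n = 16201); right, from the end that holds the only H3K4me3 summit, for peaks apart from both marks (red, n = 576, median 77.2%) and peaks overlapping H3K4me3 (blue, n = 13795, median 22%).

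The set was spread over the chromosomes in proportion to the mark. It made up 21.8%, 21.2%, 20.6%, 22.4% and 21.8% of H3K4me2 peaks on chromosomes 1 to 5, with 37.7 to 43.9 peaks per Mb and median folds of 2.66 to 2.77. In 106 windows of 1 Mb with at least 100 genes, the share of genes that host a peak ranged up to 25.4% with a median of 16.6%. In 1 window, on chromosome 2 from 3000001 to 4000000, 0 of 121 genes hosted one. That window held 8 H3K4me2 peaks in all.

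Host genes were often neighbours. The gene after a host was itself a host in 23.2% of cases, against 15.3% after other genes, and 1847 hosts (40.6%) stood in runs of 2 or more. The 75 peaks with a summit in 2 or more genes count for each of them, so they can make neighbouring hosts by themselves. What share would stand in runs if hosts were scattered at random was not tested. There were 3 runs of 7 genes. One on chromosome 1, from 20147633 to 20163735, held 9 peaks over AT1G53950 to AT1G54020, among them the GDSL-type lipase genes GLIP3 and GLL22, at folds of 2.14 to 3.25. A second on chromosome 5, from 24792577 to 24813473, held 7 peaks at folds of 2.17 to 5.88 over AT5G61690 to AT5G61750, with the ABC transporter genes ABCA9, ABCA10, ABCA11 and ABCA12. The third, on chromosome 4 from 2675156 to 2692265, ran from the kinesin gene ATK5 over the receptor kinase gene CRK25 to AT4G05250, with 7 peaks at folds of 1.84 to 4.49. The summit on CRK25 also lay in another gene. Genes in such arrays can be near copies that share reads, so a peak on one of them is uncertain.

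Most hosts held 1 of these peaks. A second was found on 449 genes, and 40 genes held 3 or more. The most were 5, on AT5G45650 on chromosome 5, at folds of 2.2 to 4.57. TIL2, a gene for a DNA polymerase epsilon subunit, held 4, at folds of 1.98 to 3.98.

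Developmental regulators of the kind known as Polycomb targets hosted these peaks at a higher share than genes at large. Of 24 such genes, 15 (62.5%) held the summit of a peak apart from both marks, against 16.6% of all protein-coding genes. Of the 15, 13 had no trimethyl peak, about the 83.9% of all hosts. Only 3 of the 24 genes (12.5%) held H3K4me3, against 63.1% of all genes. No listed peak of any mark was found on 8 of the 24. These 8 (33.3%) thus lacked H3K4me2, as did 24.4% of all genes. SEP3, STK, STM, KNAT1, WOX5, CLV3, PLT1, TFL1 and PHE1 were not hosts. The list was drawn up with earlier results of these data known, so its share describes these genes and is no independent support. The genes are long, at a median of 2996 bp, and in the length group of 2793 to 3310 bp 14.8% of all genes were hosts.

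The boundary genes CUC1, CUC2 and CUC3, which separate organs at the meristem, all hosted one. On CUC1 it reached from 5109721 to 5111456 on chromosome 3, with a fold of 4.83, and H3K4me2 covered 91.7% of the gene. The strongest peaks on CUC2 and CUC3 had folds of 3.81 and 3.84. Among floral organ identity genes, PI had a fold of 5.04 (chromosome 5, 6830475 to 6831440), SHP2 4.19, AP3 2.81, AP1 2.33, AG 2.3 and SHP1 2.13. On AG the H3K4me2 peaks covered 5.19% of the gene body. The root stem cell factor gene PLT2 had a fold of 4.43, and BBM, which promotes embryo identity, 3.13. The stem cell gene WUS had a fold of 2.49, and the KNOX homeobox gene KNAT2 3.39. KNAT6 (fold 2.21) and LFY (fold 2.66), the floral meristem factor, hosted one beside a trimethyl peak elsewhere on the gene. The median fold of the 18 peaks on this list was 2.73, close to the 2.72 of the whole set.

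Flowering time genes hosted these peaks at a share near that of all genes. Of 24, 3 (12.5%) hosted a peak, against 16.6% of all genes. H3K4me3 was on 21 of the 24 (87.5%), against 63.1% of all genes. VIN3, which silences FLC after cold, held one of 2340 bp on chromosome 5 from 23247170 to 23249509 at a fold of 3.93 and no trimethyl peak. MAF5, a relative of FLC, held one of 1882 bp at a fold of 3.75, and FLC, the repressor of flowering, one of 541 bp at a fold of 2.91. Both genes carried trimethyl peaks elsewhere, and on FLC the nearest H3K36me3 peak was 2140 bp and the nearest H3K4me3 peak 4654 bp away.

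Seed maturation genes that hosted these peaks held no listed trimethyl peak. Of 15 genes, 7 (46.7%) hosted one, against 16.6% of all genes. Of the 15, 0 had a listed H3K4me3 or H3K36me3 peak, against 63.1% and 50.4% of all genes with each. LEC1, a regulator of embryo development, had a fold of 5.02 (chromosome 1, 7727772 to 7728475), LEC2 3.86, ABI3 2.75 and FUS3 1.99. The late-embryogenesis gene EM1 had a fold of 2.33, and the storage protein genes CRA1 and CRU2 had 2.27 and 2.02. The median fold of the 7 peaks was 2.33, against 2.72 for the whole set. On FUS3, CRA1 and CRU2 the −log10 p was 10.8, 13.1 and 11.5, where the lowest of all H3K4me2 peaks was 8.58. The other 8 genes of the list had no listed peak of any mark.

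Markers of single cell types in root, shoot and flower differed in their share of hosts, which was 16.6% among all genes. Among vascular markers, 7 of 14 (50%) hosted a peak, led, as in all lists and families below by −log10 p with the fold in brackets, by IRX3, a cellulose synthase subunit of secondary walls (4.83), NST1, a factor for secondary wall formation (4.7), and ACL5, a thermospermine synthase (3.74). Among root hair and trichome markers, 7 of 16 (43.8%) did, led by GL3 (4.02) and ETC1 (4.22), which take part in epidermal patterning. Among stomatal and epidermal markers, 4 of 11 (36.4%) did, with SPCH, which starts the stomatal lineage, at 3.34 and ATML1, an epidermal identity factor, at 3.07. The median fold of the 5 peaks on that list was 2.11, against 2.72 for the whole set. Of root endodermis and cap markers, 2 of 11 (18.2%) hosted a peak, CASP4 at 2.8 and CASP1 at 2.05, near the share of all genes.

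Of the pollen and gamete markers 4 of 15 (26.7%) hosted a peak, against 16.6% of all genes. On HAP2, needed for gamete fusion, the peak had a fold of 8.02 and −log10 p of 174 and lay on chromosome 4 from 7063214 to 7064583. On DUO1, the sperm cell lineage factor, the fold was 4.07, on ROPGEF12 2.75 and on ANX2, a pollen tube receptor kinase, 2.23. No pollen forms in seedlings, and a further 7 markers of this list (46.7%) had no listed H3K4me2 peak, against 24.4% of all genes.

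Enzymes of hormone synthesis, conjugation and breakdown hosted these peaks in 18 of 43 cases (41.9%), against 16.6% of all genes. The gibberellin synthesis genes GA20OX1, GA20OX2, GA20OX3, GA3OX1 and GA3OX2 all did, at folds of 3.66, 5.78, 2.98, 3.4 and 4.34. GA20OX2 had a peak of 1407 bp on chromosome 5 from 21055422 to 21056828 that lay 10370 bp from H3K4me3. For ethylene synthesis ACS4 had a fold of 4.57, for auxin synthesis YUC1, YUC2 and YUC4 had 2.6, 2.73 and 2.76, and for auxin conjugation GH3.1 and GH3.3 had 4.07 and 3.75. The hosts also included the breakdown genes CKX3, CYP707A2 and GA2OX6, at folds of 2.78, 2.35 and 2.04. H3K4me3 was found on 27 of the 43 genes (62.8%), about the 63.1% of all protein-coding genes. Of 29 auxin transport and response genes, 10 (34.5%) hosted a peak, led by the transcriptional regulator IAA20 (5.12), the kinase gene WAG2 (4.5), IAA30 (3.72) and the auxin transporter gene PIN6 (3.87).

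Stress genes contributed 7 of 20 (35%), against 16.6% of all genes. DREB1A, a cold-induced factor also known as CBF3, had a peak on chromosome 4 from 13018240 to 13019168 at a fold of 6.47. LTI65, induced by drought and abscisic acid, had one of 2459 bp at 5.4, the defence gene PR5 4.73 and the cold-induced COR15A 4.07. FRK1, a receptor kinase gene induced by bacterial flagellin that is not on the list, held one of the 4 widest peaks on a gene with a symbol, 2425 bp at a fold of 3.45.

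Genes of photosynthesis and basic cell functions were not among the hosts. Of 26 photosynthesis genes and 16 housekeeping genes, 0 hosted a peak of this set, against 16.6% of all genes. All 26 photosynthesis genes, used in green tissue such as these seedlings, and all 16 housekeeping genes carried H3K4me3, against 63.1% of all genes. Many had no listed H3K4me2 peak at all, 22 of the 26 (84.6%) and 7 of the 16 (43.8%), against 24.4% of all genes. A gene without an H3K4me2 peak cannot be a host. Of 40 ribosomal protein genes recognised by symbol, 0 hosted one, and of 112 genes with a symbol in EMB (capitals) and a number, 1 (0.893%) did. That gene, EMB1290, is listed also as the receptor kinase CRK17, and its peak had a fold of 2.33. With symbols in lower case counted too, 2 of 160 genes (1.25%) did, the other being emb2204 at a fold of 3.2. Of 21 genes of the histone methylation machinery, SDG4 alone hosted one, at a fold of 3.84.

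**Figure D5:**
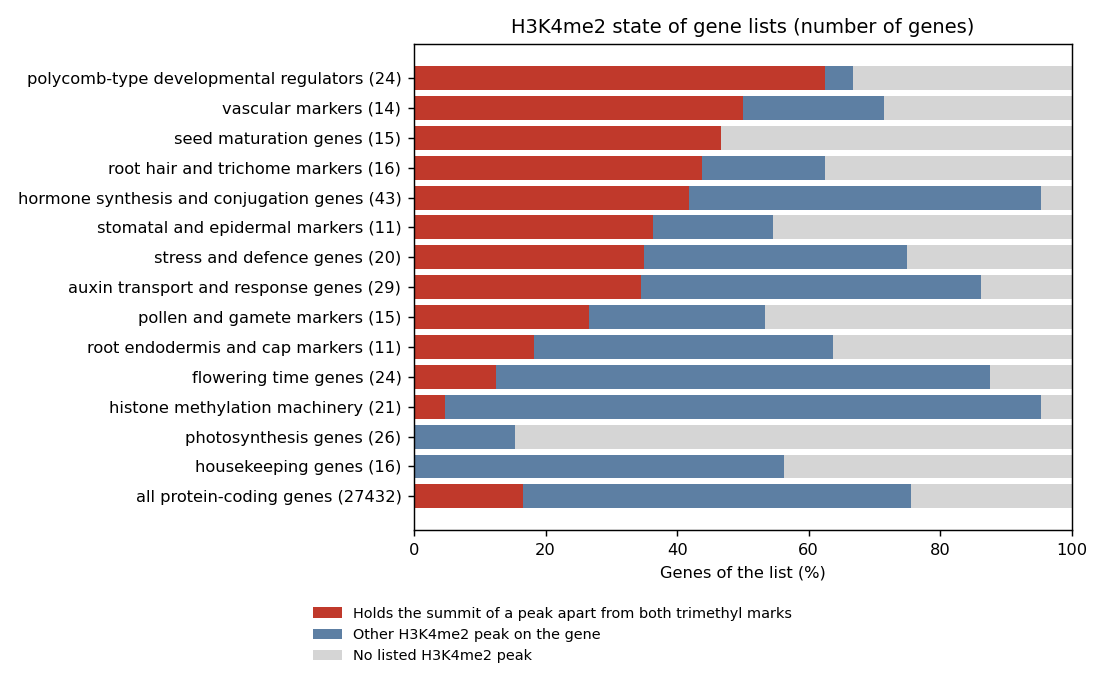
Percentage of the genes of each list (horizontal axis, number of genes in brackets) that hold the summit of an H3K4me2 peak apart from both trimethyl marks (red), another H3K4me2 peak (blue) or no listed H3K4me2 peak (grey), with all protein-coding genes at the bottom. The red share is 62.5% for Polycomb-type regulators, 16.6% for all genes and 0% for photosynthesis and housekeeping genes.

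Among transcription factor families, MYB genes were the most frequent hosts, at 46 of 116 (39.7%). MYB61 had a fold of 7.25 (chromosome 1, 3086109 to 3087838) and ranked 745 in the whole H3K4me2 list, and MYB5, MYB57 and MYB50 had 4.17, 4.78 and 4.57. The summit on MYB5 also lay in another gene. AGAMOUS-LIKE MADS-box genes followed with 27 of 77 (35.1%), led by AGL93 (6.23), then NAC genes with 24 of 81 (29.6%), led by NAC044 (6.09), and WRKY genes with 19 of 67 (28.4%), led by WRKY62 (5) and WRKY13 (5.01). Homeobox genes of the HB and WOX groups had 12 of 49 (24.5%) and LBD genes 7 of 35 (20%). TCP genes with 2 of 16 (12.5%) and ERF and DREB genes with 5 of 35 (14.3%) were near the 16.6% of all genes. In the ERF and DREB family 27 of 35 genes (77.1%) carried H3K4me3, against 63.1% of all genes.

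Families of specialised metabolism and transport ranged from 6.67% to 35.6%, against 16.6% of all genes. Cytochromes P450, which oxidise hormones and secondary compounds, hosted peaks on 78 of 219 genes (35.6%). Of the 78, 59 had no trimethyl peak, a lower share than the 83.9% of all hosts. CYP94D1 had a fold of 5.98, CYP722A1 5.12 and CYP89A6 5.18. ABC transporters had 41 of 124 (33.1%), led by ABCB9 (7.4) and ABCB11 (6.25), and glutathione transferases 16 of 48 (33.3%), led by GSTF6 (6.73). UDP-glycosyltransferases had 12 of 58 (20.7%), and aquaporins 8 of 30 (26.7%). SWEET sugar transporters had 1 of 15 (6.67%) and glutamate receptor-like channels 2 of 17 (11.8%).

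Cell wall and signalling families varied more, where the share of all genes was 16.6%. Expansins, which loosen walls, had 10 of 29 (34.5%), led by EXPA14 (5.86), and xyloglucan endotransglucosylases 6 of 30 (20%), led by XTH12 (7.24). Cysteine-rich receptor kinases had the highest share of the 31 families, 17 of 38 (44.7%), with CRK23, CRK20 and CRK15 at folds of 4.14, 4.12 and 3.97, and several lie side by side on chromosome 4. Receptor-like proteins had 9 of 52 (17.3%), about the share of all genes. Small peptide genes differed, with CLE peptides at 7 of 30 (23.3%) and RALF peptides at 1 of 34 (2.94%). Of the 34 RALF genes, 26 (76.5%) had no listed H3K4me2 peak of any kind, against 24.4% of all genes.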

How the data were processed

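Native ChIP-seq peaks of H3K4me2, H3K4me3 and H3K36me3 were analysed as deposited, 1 pooled list per mark. The submitters' processing notes name the build TAIR10 and, with no roles, MACS2, R 3.3.2, SAMtools 1.3, Picard 2.2.4, Bowtie2 2.2.6 and Trimmomatic 0.33. Settings and the selection of peaks are not given in the sources used here. Per the deposited peak names, each caller run set a mark's pooled libraries against the pool of H3. The deposited fold is the caller's ratio over H3, −log10 p is the caller's own value, and the deposited score follows the −log10 p and was not used. Replicate error and depth are unknown. Peak numbers run in genomic order, and the lists keep 62.8% (H3K4me2), 76.3% (H3K4me3) and 62.8% (H3K36me3) of the numbers.

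Host genes came from the RefSeq gene table for TAIR10.1, which gives no strand, and none of its coordinates are printed. Of the sequence under the 5002 peaks, 95.9% lay in genes, and less at every offset of 100 to 1000 bp tried. Peak coordinates are counted from 1. The members and all lists were chosen with earlier results of these data known. Of 298 list entries, 285 were matched and kept, and 18 genes with the symbol of another gene were left out of lists and families. Named genes were the 12 strongest peaks, the 4 widest and 4 of highest fold with a symbol, up to 4 of highest −log10 p per list or family, the 3 on each side of the width limit and the 3 longest runs; others (further Polycomb-type, seed maturation and hormone genes, the weakest peak, genes with 4 or more peaks and those said to be so) were chosen after their values were seen. A host was counted as trimethylated from 1 bp of overlap throughout, not from the planned 200 bp, whose count stands beside it. No test was run. Interval functions were tested on 400 simulated intervals. Planned motif and protein counts were not made, as no sequence was used here. Python 3.11.15, pandas 2.3.3, numpy 2.4.6 and scipy 1.17.1 were used.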

Additional observations from a re-analysis of the deposited data

How the results depend on the processing

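The main rule gave 5002 peaks on 4545 genes, a median width of 687 bp, a median fold of 2.72 and 84.3% on genes without a trimethyl peak. Among the strongest 50% of H3K4me2 peaks it gave 1556 peaks on 1543 genes, with 882 bp, 4.23 and 89.7%. Against the strongest 50% of each trimethyl list it gave 12188 peaks on 11044 genes, with 926 bp, 3.53 and 96.6%, so the set depends on how many trimethyl peaks are listed. With overlap counted from 50% of the peak, the medians were 746 bp and 2.85 and the share 75.4%. With no trimethyl peak within 500 bp the share was 89.3%. With a width under 1500 bp the medians were 650 bp and 2.68. Dropping the width limit, or asking for 50% of the peak in 1 gene, moved none of these 5 values beyond its 95% binomial limits or a factor of 1.5. The limits served only as a margin for change, since peaks are not independent draws, and they hold no replicate error. Called trimethyl peaks were left out of the lists, and 88.2% of the set had at least 1 unlisted number between the listed H3K4me3 or H3K36me3 peaks on either side. Whether such a peak lies on them was not tested. The 590 peaks (11.8%) with no such number, an alternative added after seeing the data, lay on 560 genes, with 592 bp, 2.38 and 88.1%. No paired analysis was possible because the pooled lists hold no samples and no test was run.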

Other observations

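The Pumilio family of RNA-binding proteins was picked out after its values were seen. It hosted H3K4me2 peaks apart from both trimethyl marks on 11 of 25 genes (44%), against 16.6% of all genes. None of the 11 had a trimethyl peak, as was so for 83.9% of all hosts. Folds were 9.76, 8.34 and 8.26 on PUM9, PUM12 and PUM11, 4.68 on PUM8 and 3.53 on PUM18. On PUM20, PUM13, PUM16, PUM14 and PUM19 they were 2.29 to 3.04, and PUM7 held a pair at 2.52 and 2.55. H3K4me3 was found on 8 of the 25 genes, and on 63.1% of all genes.

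Grouping genes by the letters that begin their symbols, after the values were seen, gave 95 families of 15 or more genes, and 59 had a share of hosts above the 16.6% of all genes. The highest shares were 9 of 17 (52.9%) for symbols in GA, all gibberellin genes among the hosts, and 12 of 26 (46.2%) for symbols in GH, which mix the GH9 glycosyl hydrolases and the GH3 auxin-conjugating enzymes. Then came the receptor kinases in CRK (18 of 40, 45%, with the 2 homonyms counted here), serine carboxypeptidase-like genes (22 of 49, 44.9%), the Pumilio genes and early nodulin-like genes (9 of 22, 40.9%). Genes with a symbol and a number are not a sample of all genes, and no test was run.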
